A study of Mus musculus with 19 samples.

Results

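Gene expression was compared between non-ischemic gastrocnemius muscle of CD1 mice that had received an oligonucleotide against the microRNA miR-210 (anti-miR-210, 4 arrays) and non-ischemic gastrocnemius of CD1 mice that had received a scrambled oligonucleotide (scramble, 4 arrays). These 8 of the study's 19 Illumina bead arrays were chosen by their labels. The other arrays held ischemic muscle after anti-miR-210 (4) or scramble (4) and untreated muscle (3). All mice were 2 months old. The oligonucleotides, locked nucleic acids of 15 nucleotides with a phosphorothioate backbone, were given once through the tail vein at 12 mg/kg in 200 µl of saline, 2 days before dissection of a femoral artery. Muscle was taken 3 days after surgery. No genotype is labelled, and the labels do not say whether a non-ischemic muscle is the opposite limb of an operated mouse. Nor do they state that each replicate is its own animal. The p-values therefore describe the spread among the arrays, part of which could be technical. Of 45281 probes, 21083 had a detection p-value under 0.05 on at least 3 of the 19 arrays and were tested.

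MicroRNAs guide Argonaute proteins to messenger RNAs, mostly through bases 2 to 8 of the mature strand (the seed), and lower the level or translation of those transcripts. miR-210 is induced by hypoxia-inducible factor, and its published targets include Iscu, which builds iron-sulfur clusters, and other genes of mitochondrial respiration. An anti-miR binds the mature microRNA, so targets repressed in a tissue would be derepressed. The question of the comparison is which transcripts differed in muscle that was not ischemic. The arrays carry no probe for miR-210 itself, so its inhibition was not measured.

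The sequences of miR-210 and of both injected oligonucleotides are shown because the comparison rests on them. In the microRNA (RefSeq, chr7:141221407-141221428, minus strand, GRCm38.p6) the capitals mark the seed, and in anti-miR-210 they mark the bases that pair with it.
mmu-miR-210-3p: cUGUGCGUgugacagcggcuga
anti-miR-210: gctgtcacACGCACA
scramble: cgtctagccacctag
Anti-miR-210 was complementary to bases 2 to 16 of the 22 bases of miR-210-3p over its whole length of 15. The longest run of the scramble sequence complementary to miR-210-3p was 4 bases. Among 1679 mature mouse microRNAs in the RefSeq table, 1 had the seed of miR-210-3p, which was miR-210-3p itself. A run of 7 bases complementary to a seed was present in anti-miR-210 for 3 microRNAs (miR-210-3p, miR-542-3p and miR-3100-3p) and in scramble for 1 (miR-7037-5p). These matches are descriptions of sequence only.

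Few transcripts separated the groups. With limma and Benjamini-Hochberg adjustment over all 21083 probes, 3 probes passed an adjusted p of 0.05 (0.0142% of those tested), 1 higher after anti-miR-210 (Lims1, 0.00474%) and 2 lower (Ap1b1 and Gin1, 0.00949%). Under the 4 other normalizations tried, 0 probes were called higher and 1 or 2 lower. The median change over all probes was -0.0096 on the log2 scale. At an unadjusted p under 0.05 there were 1382 probes (6.56%), 729 higher (3.46%) and 653 lower (3.1%). The arrays of the groups did not overlap for 994 probes (4.71%), 426 higher (2.02%) and 568 lower (2.69%). All changes below are anti-miR-210 minus scramble in normalized log2 intensity with a standard error (SE) from the fit, and n is 4 arrays per group.

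Ap1b1, which encodes the beta subunit of the clathrin adaptor AP-1 that sorts cargo at the trans-Golgi network, fell 2.66-fold. Its normalized log2 intensity was 7.55, 7.46, 7.85 and 8.21 on the anti-miR-210 arrays and 9.09, 9.26, 8.91 and 9.46 on the scramble arrays. Every anti-miR-210 array lay below every scramble array. The change was -1.41 ± 0.19 (SE; limma adjusted p = 0.004146), and the gene has 1 tested probe. The separation was present in the deposited intensities, before any normalization, at 175.4, 227.5, 260.9 and 368.9 after anti-miR-210 and 652.0, 597.4, 578.5 and 872.1 after scramble. Untreated muscle averaged 9.12 ± 0.33 on the log2 scale (SD, n = 3), a level inside the range of the scramble arrays.

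Gin1, named for its similarity to the integrase of gypsy retrotransposons, fell on 1 probe. This probe gave 4.22, 4.25, 4.32 and 5.10 after anti-miR-210, detected on 1 of 4 arrays, and 5.65, 6.13, 5.64 and 5.94 after scramble, detected on 4 of 4. The groups did not overlap, and anti-miR-210 replicate 4 stood nearest to the scramble arrays. The fitted change was -1.37 ± 0.22 (limma adjusted p = 0.03133). The mean after anti-miR-210, 4.47, lay under the detection floors of those arrays (4.53 to 4.63), so the size of the fall depends on background. A second tested Gin1 probe, undetected on all 4 anti-miR-210 arrays and detected on 2 scramble arrays, had a change of -0.19 ± 0.14 (unadjusted p = 0.1807). Untreated muscle averaged 4.43 ± 0.28 on the first probe (n = 3), so that the scramble arrays were the high ones among non-ischemic and untreated muscle.

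Lims1, which encodes the adaptor PINCH1 of the integrin-linked kinase complex at cell-matrix adhesions, rose, and was not detected after scramble. Its probe gave 5.27, 4.81, 4.81 and 4.77 after anti-miR-210, detected on all 4 arrays, and 4.22, 4.24, 4.23 and 4.17 after scramble, detected on none. The fitted change was 0.70 ± 0.12 (limma adjusted p = 0.03284). Because the scramble group has only a bound, the rise was at least 1.27-fold, from the mean of the anti-miR-210 arrays against the lowest signal among detected probes on the scramble arrays. In deposited intensity the values were 90.0, 85.5, 83.5 and 88.9 after anti-miR-210 and 80.6, 78.3, 79.9 and 76.7 after scramble, which is a narrow interval near background. Untreated muscle gave 88.5, 83.9 and 84.6 in deposited intensity, and the probe was detected on 1 of these 3 arrays. These untreated values, not adjusted for array brightness, lay inside the anti-miR-210 range and above every scramble array.

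**Figure D1:**
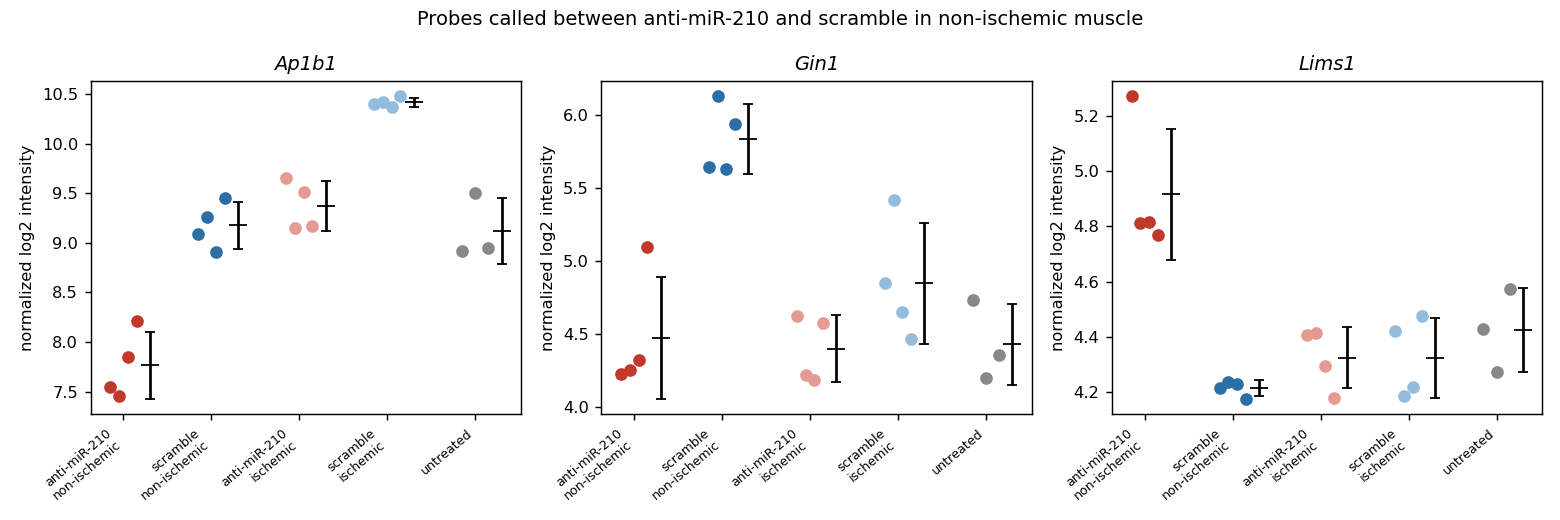
Normalized log2 intensity of the called probes of Ap1b1, Gin1 and Lims1 on all 19 arrays (1 point per array, bars give the mean and SD of a group). Anti-miR-210 arrays of non-ischemic muscle lie apart from scramble arrays in each panel, at a mean of 7.77 against 9.18 for Ap1b1.

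How firmly these calls stood differed by gene. Ap1b1 was called when any 1 of the 8 arrays was left out. It was also called in 21 of all 23 alternative settings, with changes between -1.56 and -1.18. Gin1 was called in 8 of 23 settings, with changes between -2.77 (offset of 1) and -0.53 (no background correction). Lims1 was called in 3 of 22, with changes between 0.27 (no background correction) and 2.08 (offset of 1). The 3 calls became 1 when anti-miR-210 replicate 1, 2 or 3 or scramble replicate 1, 2 or 3 was left out, 2 without scramble replicate 4 and 4 without anti-miR-210 replicate 4. With the spread taken from the 8 arrays alone, no probe was called by limma (1811 at an unadjusted p under 0.05, smallest adjusted p = 0.0687).

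Further genes with separated arrays did not pass the adjusted threshold. An unadjusted p under 0.01 together with arrays that do not overlap was found for 190 probes (0.901% of those tested), 107 higher and 83 lower. Of these, 10 differed at least 2-fold and 61 were undetected on every array of 1 group. The smallest adjusted p not called was 0.1121, shared by Dus2 and Pex19. The genes below are named as the largest of these differences in each direction, and their values are given without a claim of change.

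Among the genes with lower values after anti-miR-210, Hey1, a transcriptional repressor downstream of Notch, gave 6.41, 6.19, 6.33 and 6.67 after anti-miR-210 and 7.04, 7.43, 7.36 and 7.14 after scramble (change -0.84 ± 0.17, limma adjusted p = 0.2169). Mvb12b, a subunit of the ESCRT-I complex of endosomal sorting, gave 5.60, 5.56, 5.83 and 6.11 after anti-miR-210 and 7.05, 6.78, 6.68 and 6.64 after scramble (-1.01 ± 0.24, adjusted p = 0.4322). For neither gene did the groups overlap. Tgfbi, a matrix protein induced by transforming growth factor beta, had 2 tested probes with values of the same sign, -0.88 ± 0.29 on the dimmer and -0.67 ± 0.22 on the brighter. Timm9, a chaperone of mitochondrial import, differed by -0.85 ± 0.19 and -1.14 ± 0.30 on 2 dim probes and by -0.22 ± 0.17 on its brightest probe. For Nfib, a nuclear factor I transcription factor, 1 probe differed by -0.88 ± 0.28, and 8 further probes had changes between -0.35 and 0.32. A transcript named E030030I06Rik, with no known function, had a change of -0.88 ± 0.25.

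Ccdc146 and Fggy were uneven within the anti-miR-210 group. Ccdc146, a coiled-coil protein of centrioles and sperm, gave 4.57, 4.40, 6.54 and 6.85 after anti-miR-210 and 7.69, 7.51, 7.46 and 7.28 after scramble (-1.90 ± 0.48, adjusted p = 0.4406). Fggy, a carbohydrate kinase, gave 4.346, 4.196, 6.557 and 6.384 after anti-miR-210 and 6.603, 6.685, 6.718 and 6.830 after scramble (-1.34 ± 0.44, adjusted p = 0.5896). For both, anti-miR-210 replicates 1 and 2 were near background and undetected, whereas replicates 3 and 4 were detected and lay nearer to, but still below, the scramble arrays. In ischemic muscle after anti-miR-210, Fggy gave 5.79, 5.27, 6.81 and 6.67 in the same numbering. Ccdc146 was between 4.35 and 4.69 on all 4 of those arrays.

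Among the genes with higher values, Ybx3, a cold-shock domain protein that binds RNA and is abundant in muscle, gave 8.95, 8.21, 7.88 and 7.94 after anti-miR-210 and 7.23, 6.73, 6.69 and 7.04 after scramble on 1 probe (1.32 ± 0.32, adjusted p = 0.4384). Its 3 other tested probes had changes of 0.27, 0.021 and -0.11. Idh3a, the catalytic subunit of mitochondrial isocitrate dehydrogenase, gave 1.05 ± 0.31 on a dim probe and 0.17 ± 0.25 on a bright one. The same split between probes held for Pex19, a peroxisome import factor (0.85 ± 0.16 on a probe detected on 1 of 4 scramble arrays, 0.08 ± 0.22 on its bright probe), and Ide, the insulin-degrading enzyme (0.96 ± 0.26 on the dimmest of 3 probes, 0.15 ± 0.17 on the brightest). Traf6, a ubiquitin ligase of Toll-like and interleukin-1 receptor signalling, gave 0.96 ± 0.26 on 1 probe and between -0.14 and 0.06 on 3 others. Single probes carried these values, and the further tested probes of these genes had changes between -0.14 and 0.29.

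Genes measured on a single tested probe included Dus2, which makes dihydrouridine in transfer RNA. It gave 5.70, 5.74, 5.37 and 5.39 after anti-miR-210 and 4.53, 4.97, 4.84 and 4.37 after scramble, a change of 0.87 ± 0.16. Ankrd61, an ankyrin repeat protein, had a change of 1.11 ± 0.28. For Arrdc2, an alpha-arrestin, 2 tested probes gave 1.01 ± 0.28 and 0.28 ± 0.15. Azi2, an adaptor of the kinase TBK1, gave 0.90 ± 0.23 and 0.16 ± 0.17, and Gzf1, a zinc finger repressor, 0.98 ± 0.26 and 0.24 ± 0.18.

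**Figure D2:**
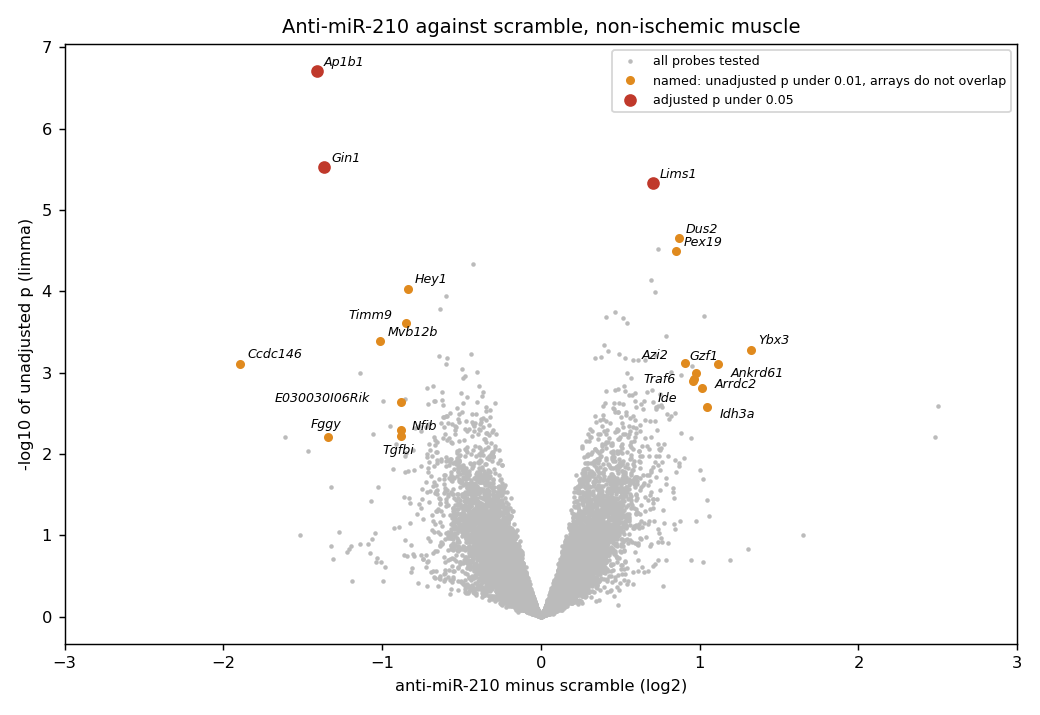
Change in log2 intensity (anti-miR-210 minus scramble, x axis) against minus log10 of the unadjusted limma p (y axis) for 21083 probes. The 3 called probes are red, the named probes that were not called are orange, and 43 probes in all differ at least 2-fold.

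The published targets of miR-210 were examined next. Of 62 genes on the list, 47 had a tested probe and 0 were called. At an unadjusted p under 0.05 there were 2 (4.26%), 1 in each direction. Over all 14646 genes with 1 probe each the share was 6.15%, with 2.92% higher and 3.24% lower. The median change of the 47 was 0.027, with 28 above 0 and 19 below, against a median of -0.017 over all genes. Detection on all 8 arrays held for 31 of the targets, 18 of them above 0, and 5 were detected on none. The 95% interval of the change lay below a 1.5-fold rise for 34 of the 47 targets and below a 2-fold rise for 44. For the 31 targets detected throughout, these numbers were 20 and 28. Smaller rises could not be told from no change with this number of arrays and a spread estimated over all 19 arrays.

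Targets in mitochondrial metabolism had changes smaller than their SE. Iscu, the iron-sulfur scaffold, was bright, at 12.22, 11.89, 12.08 and 12.03 after anti-miR-210 and 11.99, 11.72, 12.19 and 11.71 after scramble, and the groups overlapped. Its change was 0.15 ± 0.16 (unadjusted p = 0.3395), with a 95% interval of -0.17 to 0.48. Cox10, which makes the heme of cytochrome oxidase, had a change of 0.11 ± 0.16, Ndufa4, a subunit of the respiratory chain, 0.027 ± 0.19, and Sdhd, a membrane subunit of succinate dehydrogenase, 0.024 ± 0.26. The sign of the Ndufa4 and Sdhd changes turned when single arrays were left out.

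Targets in growth and signalling were also without a call. Fgfrl1, a receptor of fibroblast growth factors that lacks the kinase domain, had a change of 0.26 ± 0.30. The insulin-like growth factor receptor gene Igf1r had -0.072 ± 0.16, the phosphatase gene Ptpn1 -0.038 ± 0.19, and E2f3, a transcription factor of cell cycle entry, -0.18 ± 0.16. A dimmer E2f3 probe, detected on 1 of 4 anti-miR-210 and 3 of 4 scramble arrays, had -0.39 ± 0.14 (unadjusted p = 0.01023). Tob2, an antiproliferative adaptor of messenger RNA deadenylation, had the highest value of the list. It gave 9.69, 8.22, 7.84 and 7.74 after anti-miR-210 and 7.89, 7.78, 7.41 and 7.59 after scramble. The change was 0.71 ± 0.32 (unadjusted p = 0.03607, adjusted p = 0.7202), was 0.27 without anti-miR-210 replicate 1, and the groups overlapped. Hoxa9, a homeobox transcription factor, had -0.28 ± 0.13 and was detected on 1 of 4 anti-miR-210 and 3 of 4 scramble arrays. Rad52 was the only 1 of the 47 targets without overlap of the arrays, which held for 4.71% of all tested probes. It gave 6.81, 6.80, 6.70 and 6.83 after anti-miR-210 and 7.09, 7.11, 7.25 and 7.11 after scramble. Its change was -0.35 ± 0.18 (limma unadjusted p = 0.05673), and -0.36 in ischemic muscle. Efna3, Gpd1l, Casp8ap2 and Bnip3 had no probe detected on more than 1 of the 19 arrays and were not tested. A search of 3′ untranslated regions for seed matches was not made here.

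**Figure D3:**
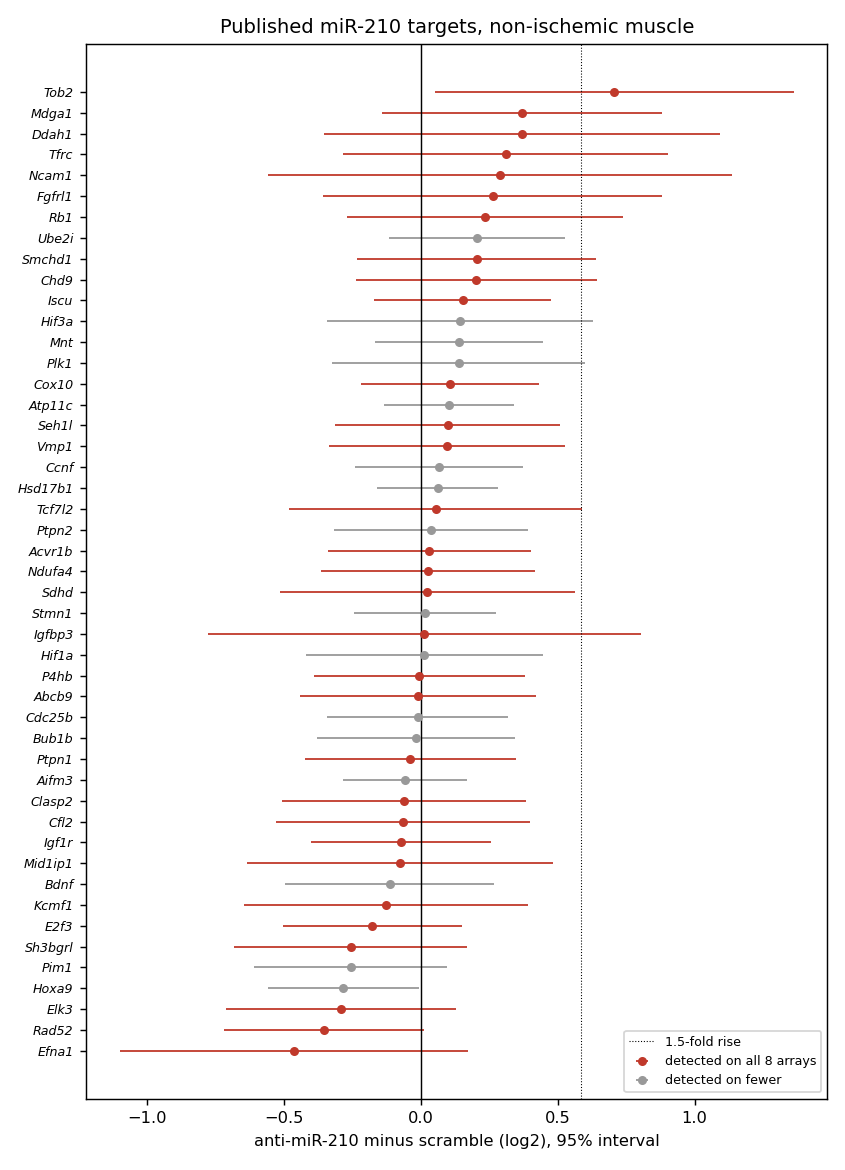
Change in log2 intensity with its 95% interval for the 47 published miR-210 targets tested, ordered by change (red, detected on all 8 arrays; grey, on fewer). Most intervals end left of the dotted line at a 1.5-fold rise, and Tob2 at 0.71 is the highest.

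Gene lists of muscle biology, stress, immunity and cell types were described by counts and medians. The 34 lists held 798 distinct genes with a tested probe, of which 0 were called and 25 (3.13%, against 6.15% of all genes) had an unadjusted p under 0.05. Apart from the liver list, list medians lay between -0.23 and 0.14. No list gene named below was called. Apart from Vegfa, Hmox1 and the muscle markers, they were picked for their p-values. The atrophy genes came from a naming rule that takes the smallest p-values of a list, the others after the values were seen. All these values are descriptions.

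In the hypoxia response (23 of 25 genes measured, median -0.011), Bnip3l, a mitophagy receptor, had lower values on every anti-miR-210 array, at 8.20, 8.41, 8.41 and 8.59 after anti-miR-210 and 9.20, 9.04, 9.10 and 8.84 after scramble. The change was -0.64 ± 0.14 (unadjusted p = 0.0001646, limma adjusted p = 0.279). Ddit4, an inhibitor of mTOR signalling, had a change of 1.05 ± 0.47 with overlapping groups. Vegfa, the main angiogenic growth factor, was level at 10.73 to 10.99 after anti-miR-210 and 10.76 to 10.85 after scramble (-0.017 ± 0.19). Hmox1, heme oxygenase 1, was not detected on any of the 8 arrays. In the list of angiogenic ligands and receptors (29 measured, median 0.0086), Fgf1, a fibroblast growth factor, had 0.69 ± 0.23.

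List medians in energy metabolism lay near 0, and no member was called. Oxidative phosphorylation had 72 measured genes with a median of -0.0061, and 2 (2.78%, against 6.15% of all genes) at an unadjusted p under 0.05, both lower. These were Cox4i1 of cytochrome oxidase (-0.38 ± 0.14) and Ndufc1 of complex I (-0.40 ± 0.16, and -0.21 ± 0.26 on its other probe). Without overlap of the arrays, 5 of the 72 genes were lower and 0 higher, against 2.69% of all tested probes lower and 2.02% higher. The median was 0.10 for the tricarboxylic acid cycle (25 genes), where citrate synthase gene Cs had 0.54 ± 0.23, 0.076 for glycolysis (24 genes), with the enolase gene Eno1 at 0.41 ± 0.19, and 0.046 for fatty acid oxidation (26 genes).

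Genes of muscle fibres gave no call. The 10 skeletal muscle markers had tested probes with mean levels between 11.06 and 13.74, at or above percentile 97.1 of all tested probes, so the defining markers of the labelled tissue were present. Their changes ran from -0.11 (Acta1, skeletal actin) to 0.52 (Ttn, the giant sarcomere protein titin). Fast fibre genes had a median of 0.031 (30 genes), and slow fibre genes 0.14 (16 genes), which was -0.070 without scramble replicate 1. In the list of satellite cells and regeneration (20 genes, median 0.14), Actc1, the cardiac actin of developing muscle, was uneven. It gave 11.16, 10.50, 6.52 and 10.12 after anti-miR-210 and 6.73, 6.87, 7.89 and 6.88 after scramble. Of the anti-miR-210 arrays, 3 lay far above and replicate 3 below all scramble arrays, and the second probe had the same change (2.50, against 2.48 ± 0.82 on the first).

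Of the stress lists, only that of atrophy and FoxO targets (24 genes, median -0.027) had 3 or more members at an unadjusted p under 0.05. There were 3 (12.5%), all higher, where 2.92% of all genes were higher at this p. Mt1, a metallothionein that binds zinc and copper, gave 10.78, 12.56, 12.20 and 11.10 after anti-miR-210 and 11.10, 10.83, 10.54 and 10.65 after scramble (0.88 ± 0.29, unadjusted p = 0.0056). Mt2, a second metallothionein, had 0.90 ± 0.32 on a probe detected on 1 of 4 scramble arrays. Its size depends on background, with 0.32 to 1.92 over the alternative settings. Cdkn1a, an inhibitor of cyclin-dependent kinases, had 0.84 ± 0.37 on its brightest probe, and 0.57 ± 0.27 and 0.35 ± 0.28 on 2 others. The groups overlapped for all 3 genes. In ischemic muscle the changes were -0.0095 for Mt1, -1.12 for Mt2 and 0.53 for the brightest Cdkn1a probe. The heat shock and endoplasmic reticulum stress list had a median of 0.14 (33 genes), and its member Pdia6, a protein disulfide isomerase, had 0.82 ± 0.21 without overlap on 1 probe and 0.093 ± 0.18 on a dimmer one. Per3 of the circadian clock had 0.71 ± 0.20, also without overlap, and the immediate early gene Egr1 -1.07 ± 0.48 with overlap.

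Innate immune lists, examined because oligonucleotides can meet nucleic acid sensors, had medians near 0. The median was -0.012 for Toll-like receptors and nucleic acid sensing (28 genes), -0.0031 for interferon-stimulated genes (35 genes) and -0.031 for cytokines and chemokines (30 genes). Detection on all 8 arrays held for 13, 21 and 9 of these genes in turn, and 7 cytokine and chemokine genes were detected on none. Of the 30, 9 had changes above 0 and 21 below. Their median ran from -0.21 (16 genes detected on at least 3 of the 8 arrays) to 0.078 (median scaling) over the alternative settings. Sting1, an adaptor of cytosolic DNA sensing, was detected on 4 anti-miR-210 arrays and on 0 scramble arrays, a level at least 1.23-fold higher (adjusted p = 0.5671). Irf1, an interferon-regulated transcription factor, had -0.48 ± 0.21 on its brightest probe and between -0.23 and 0.034 on 3 others. In the list of microRNA processing and RNA silencing (24 genes, median 0.038), 3 genes were higher and 0 lower without overlap of the arrays. Among all tested probes these shares were 2.02% higher and 2.69% lower. The RNA helicase gene Ddx5, with overlapping groups, had -0.49 ± 0.18 on a dim probe.

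Markers of other cell types also gave no call. Medians nearest 0 were -0.0011 for neutrophil (11 genes), -0.022 for Schwann cell and nerve (12), -0.027 for erythroid (7), -0.029 for monocyte and macrophage (28) and -0.033 for lymphocyte genes (13). Detection on all 8 arrays held for 0 neutrophil, 5 Schwann cell and nerve, 5 erythroid, 14 monocyte and macrophage and 3 lymphocyte genes. For genes near background, a median near 0 does not show that the cell type was unchanged. Lower medians were -0.10 for endothelial (13 genes), -0.12 for smooth muscle and pericyte (17), -0.14 for tendon (9), -0.19 for fibroblast and matrix (31), -0.22 for adipocyte (13) and -0.23 for mast cell genes (7). Without scramble replicate 1, described below for its liver transcripts, these lower medians were -0.050 for endothelial, -0.092 for smooth muscle and pericyte, -0.089 for tendon, -0.099 for fibroblast and matrix, 0.075 for adipocyte and -0.11 for mast cell genes. The erythroid median was -0.13 and that of Schwann cell and nerve 0.11 without scramble replicate 1. Leaving out anti-miR-210 replicate 1 instead gave -0.23 for endothelial, -0.12 for smooth muscle and pericyte, -0.32 for tendon and -0.33 for fibroblast and matrix. It gave -0.13 for adipocyte, -0.19 for mast cell, -0.081 for erythroid and -0.13 for Schwann cell and nerve genes. Robo4, an endothelial receptor, was 7.74, 7.66, 7.77 and 7.87 after anti-miR-210 and 8.49, 8.42, 8.41 and 7.96 after scramble (-0.56 ± 0.24). The actin-severing gelsolin gene Gsn had -0.70 ± 0.26 (0.072 ± 0.15 on a probe near background), and the lipid synthesis gene Dgat2 0.67 ± 0.30. Fewer cells of a type and less RNA per cell cannot be told apart in whole muscle.

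**Figure D4:**
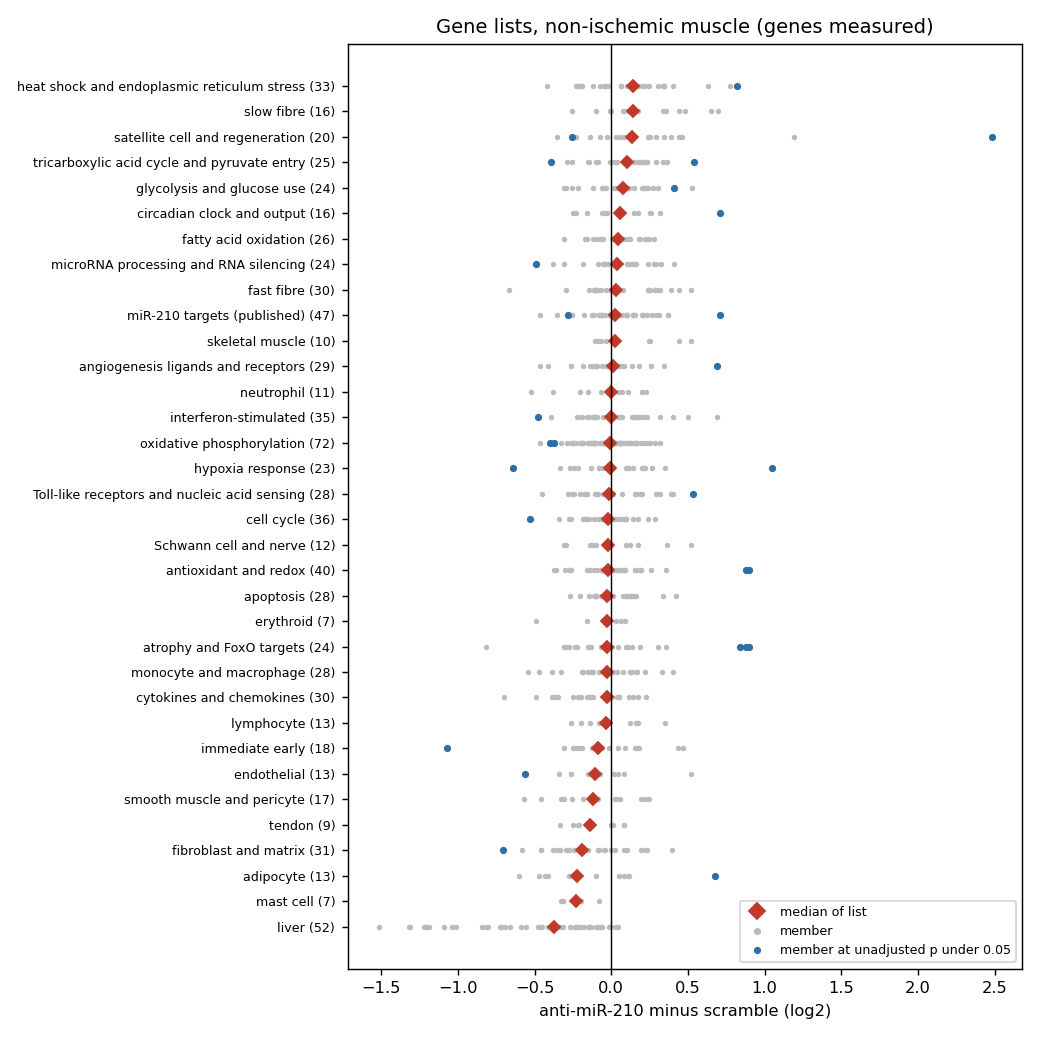
Change in log2 intensity of the measured members of 34 gene lists (grey points, blue at an unadjusted p under 0.05) with the median of each list (red diamonds), ordered by median. Medians lie between -0.23 and 0.14 except for the liver list at -0.37.

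The arrays were not alike in every respect. Mean deposited intensity was 170.5 to 226.2 on anti-miR-210 arrays and 203.0 to 240.2 on scramble arrays (means 204.4 ± 24.2 after anti-miR-210 and 226.4 ± 16.2 after scramble, SD; exact two-sided permutation p = 0.171). Between 32.6% and 35.4% of probes were detected on anti-miR-210 arrays and between 33.8% and 35.0% on scramble arrays. Anti-miR-210 replicate 1 was the dimmest and lay farthest out on the first principal component of the 8 arrays (24.6% of the variance). Of 52 liver genes measured, 45 were detected on scramble replicate 1, against 9 to 15 on the anti-miR-210 arrays and 11 to 14 on the other scramble arrays. The mean level of the liver list was 4.74 ± 0.05 after anti-miR-210 and 5.24 ± 1.06 after scramble, or 4.71 ± 0.08 without scramble replicate 1. Its median change of -0.37 became -0.0084 without that array. The plasma protein gene Apoa2, for instance, was 10.28 on scramble replicate 1 and between 4.15 and 4.51 on all anti-miR-210 arrays. Untreated arrays carried the same transcripts, with list means from 7.08 to 10.71. Their part in the results was not tested beyond leaving the array out, which kept the Ap1b1 call. The calls of Gin1 and Lims1 were lost without it, but their changes were as large, at -1.43 (limma adjusted p = 0.06294) and 0.70 (limma adjusted p = 0.1608).

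**Figure D5:**
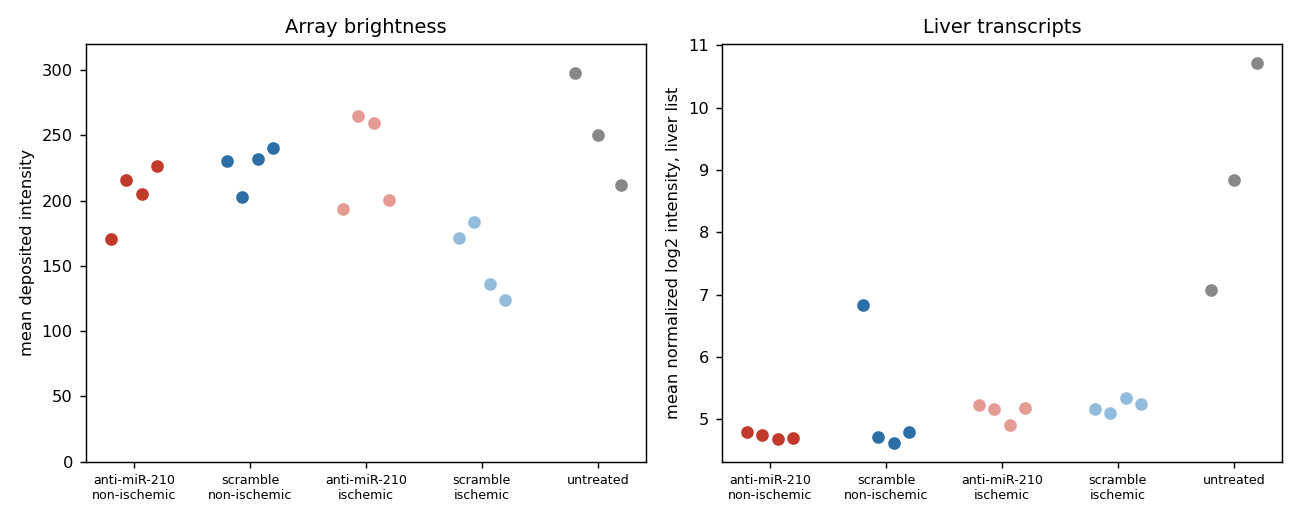
Mean deposited intensity over all probes (left) and mean normalized log2 intensity of the liver list (right) for the 19 arrays, 1 point each. Scramble non-ischemic replicate 1 stands at 6.83 on the right, apart from the 7 other non-ischemic arrays after an oligonucleotide.

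The ischemic arrays give the same contrast in injured muscle. There limma called 151 probes (0.716%), and 15.7% had an unadjusted p under 0.05. For Ap1b1 the ischemic change was -1.04 ± 0.19 (limma adjusted p = 0.0141), with arrays at 9.65, 9.15, 9.51 and 9.17 after anti-miR-210 and 10.40, 10.42, 10.37 and 10.48 after scramble. In deposited intensity, however, these ischemic groups overlapped, at 634.3 to 1089.7 after anti-miR-210 and 600.4 to 1170.8 after scramble, and the ischemic scramble arrays were dimmer overall. The difference between the effects in both muscles was 0.37 for Ap1b1 (ischemic minus non-ischemic, limma adjusted p = 0.7252), 0.92 for Gin1 (limma adjusted p = 0.471) and -0.70 for Lims1 (limma adjusted p = 0.319). In ischemic muscle Gin1 had -0.45 ± 0.22 and Lims1 -0.00083 ± 0.12.

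Of the 190 probes with separated arrays, 130 (68.4%) had the same sign in ischemic muscle, against 56.0% of all tested probes. Both contrasts used different arrays, but each of the 8 non-ischemic arrays correlated best with the same-numbered ischemic array of its oligonucleotide. These correlations, of deviations from group means, were low, at 0.05 to 0.25. Conversely, anti-miR-210 ischemic replicate 2 correlated at 0.083 with non-ischemic replicate 1 and at 0.077 with its own number. Whether same-numbered arrays share mice is not labelled. An unadjusted p under 0.05 with the same sign was found for 23 of the 190 (12.1%), against 9.91% of all tested probes, and 2 were called there. The test of whether the effect of anti-miR-210 differed between ischemic and non-ischemic muscle called 2 probes (0.00949%), those of Card14 and Sftpd. With the replicate number as a block it called 0. That block joined same-numbered arrays of both oligonucleotides, without the untreated arrays, so it does not model the limbs of a mouse. In non-ischemic muscle Card14 and Sftpd were both near background. Card14, a scaffold of NF-kappaB signalling, averaged 4.32 after anti-miR-210 and 4.33 after scramble there, and Sftpd, the collectin surfactant protein D, 4.37 after anti-miR-210 and 4.19 after scramble.

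Precision set a floor to what could be seen. The median SE of a change was 0.19, and a 95% interval reached 0.40 to either side of the change at the median. Of 11639 probes detected on all 8 arrays, the interval of 10802 (92.8%) lay inside 2-fold in either direction.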

How the data were processed

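The deposited table gives, for each of 45281 probes on 19 single-colour Illumina bead arrays, an average bead intensity (per the file headers, and from its values neither normalized nor background-subtracted) and a detection p-value, which the authors deposited beside it. A second deposited table holds intensity values normalized by the authors and served only as an alternative. RNA was isolated with Trizol, cleaned on columns and made into biotinylated cRNA, per the labels' protocols. The sources used here do not name the export software, and no batch is labelled. The number of arrays limits the precision.

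Background correction, an offset of 16, quantile normalization and log2 were applied with neqc in limma 3.58.1 (R 4.3.3). Probes with a detection p-value under 0.05 on at least 3 of 19 arrays were kept (21083). With limma, 5 group means were fitted to all arrays (eBayes with a variance trend), and p-values were adjusted by Benjamini-Hochberg over all kept probes. The script was tested on simulated data. Lists use the probe with the highest mean per gene (14646 names). Array brightness and the liver level were set against an exact two-sided permutation test, whose smallest p for 4 against 4 arrays is 0.0286. Probe names follow the file (60.5% current symbols), with 18.3% updated through a RefSeq gene table and 21.1% kept as they stand. Plots were made in Python 3.11.15 with matplotlib 3.10.9.

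Named were all called probes, the 10 highest and 10 lowest changes at an unadjusted p under 0.01 without overlap, 14 genes of prior interest (Vegfa, Hmox1, Bnip3, Igf1r and published targets), up to 3 members of each list with at least 3 members at an unadjusted p under 0.05, and 10 muscle markers. Other list members are named after their values were seen. Members and lists were chosen with earlier results of these data known. Normalization, offset, filter, array set, weights, covariates, the replicate block and leaving out arrays were varied. The replicate block gave same-numbered arrays of both oligonucleotides and both muscles a shared term, and was fitted without the untreated arrays.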

Additional observations from a re-analysis of the deposited data

Results flagged for a closer look

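Within a group of 4 arrays, a single array stood apart from the others for 11 of 136 groups examined, where chance gives about 1 in 20. Among called genes, Lims1 was 5.27 on anti-miR-210 replicate 1 against 4.77 to 4.81 on the other anti-miR-210 arrays, and Gin1 was 5.10 on anti-miR-210 replicate 4 against 4.22 to 4.32. Among anti-miR-210 arrays, replicate 4 was also high for Vegfa (10.99 against 10.73 to 10.76) and Cox10 (10.81 against 10.60 to 10.63), replicate 3 for Igf1r (6.71 against 6.44 to 6.48) and replicate 2 for Mef2d (4.58 against 4.22 to 4.26). Among scramble arrays, replicate 1 was high for Tnnt3 (13.26 against 13.07 to 13.08) and for the liver list (6.83 against 4.63 to 4.79). Replicate 3 was high for Actc1 (7.89 against 6.73 to 6.88), and replicate 4 was high for Pex19 (5.07 against 4.50 to 4.53) and low for Robo4 (7.96 against 8.41 to 8.49).

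The effect of anti-miR-210 differed between ischemic and non-ischemic muscle for 2 probes by limma's test of the difference. It differed for 0 with the replicate number as a block shared by both oligonucleotides. For Card14 the difference (ischemic minus non-ischemic) was -1.31 (adjusted p = 0.01654), with -1.31 in ischemic and -0.0084 in non-ischemic muscle. For Sftpd it was -2.22 (adjusted p = 0.0181), with -2.04 in ischemic and 0.18 in non-ischemic muscle.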

How the results depend on the processing

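The 3 probes called became 2 with quantile normalization without background correction, with the authors' normalized values, without a filter, with detection on 3 of the 8 arrays and with a detection p under 0.01. They stayed 3 with 1 probe per gene. They became 1 (lower, Ap1b1) with median scaling, cyclic loess, an offset of 1, the brightness covariate, the replicate block or, added after seeing the data, without a variance trend. Array weights gave 9 (7 higher, 2 lower), and the 8 arrays alone 0. Without both replicates 1, an alternative added after seeing the data, 0 were called (999 at an unadjusted p under 0.05, smallest adjusted p = 0.06614). Leaving out 1 array gave 1 to 4. Ap1b1 lost its call with the 8 arrays alone and without both replicates 1. The cause was not tested.

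The difference of effects called 2836 probes with median scaling, 0 with the replicate block and 0 to 92 with 1 array left out (92 without anti-miR-210 ischemic replicate 4, 18 without scramble ischemic replicate 2), and the cause was not tested. In non-ischemic muscle, same-numbered deviations of anti-miR-210 and scramble arrays correlated between -0.02 and 0.07, and 0 of 4 anti-miR-210 arrays correlated best with their own number. In ischemic muscle the same-number correlations were -0.0020, 0.16, -0.30 and 0.28 for replicates 1 to 4. Whether the numbers pair anti-miR-210 with scramble arrays is not labelled, and these values cannot decide it. The liver level difference of -0.51 ran from -0.71 to 0.022 with 1 array left out, and was 0.022 without scramble replicate 1.

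Changes near 0 turned sign. With median scaling these were Hmox1 (0.13), Sdhd (-0.0065) and Atp2a1 (0.053). With cyclic loess they were Hmox1 (0.15), Vegfa (0.028), Acta1 (0.076), Mylpf (0.11), Ckm (0.094) and Atp2a1 (0.18). With the brightness covariate they were Hmox1 (0.13), Vegfa (0.0055), Ckm (0.015) and Pvalb (-0.039). With array weights they were Vegfa (0.0070), Pvalb (-0.014) and Tnni2 (-0.0097). Without both replicates 1 they were Vegfa (0.0090) and Tnni2 (-0.0015). Leaving out 1 array gave -0.13 to 0.049 for Ptpn1, -0.061 to 0.065 for Hmox1, -0.079 to 0.0071 for Vegfa, -0.16 to 0.20 for Sdhd, -0.037 to 0.089 for Ndufa4, -0.14 to 0.044 for Ckm, -0.19 to 0.12 for Atp2a1, -0.094 to 0.10 for Pvalb and -0.084 to 0.13 for Tnni2.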
